A study of Sus scrofa with 35 samples.

Results

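The blood transcriptome of Large White (LW) pigs was compared between thermoneutral (TN) and heat stress (HS) conditions. The groups were chosen from the sample titles alone, as every LW pig titled with the TN temperature (6 pigs) and every LW pig titled with the HS temperature (6 pigs). These are 12 of the 35 pigs of the series, which also holds 11 Creole (CR) pigs (5 TN and 6 HS) and 12 F1 pigs of the cross between both breeds (6 TN and 6 HS). All were castrated male growing pigs raised in Guadeloupe, and the labels name no treatment other than temperature and give no age. TN pigs were slaughtered at 24 °C, before the temperature of the room was raised. HS pigs were slaughtered after the rise, following 5 days of heat in the labels and 4 or 5 days in the methods. The temperature of HS is 30 °C in the titles but 32 °C in the description of the experiment, and the groups are therefore called TN and HS here.

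Pigs lose little heat by sweating, and blood carries heat to the skin as well as hormones and white cells between organs. In cells that are heated, heat shock factors switch on the genes of chaperones (HSP70, HSP90, HSP40, HSP110), which keep proteins folded. Whole blood holds RNA of immature red cells, platelets, neutrophils, monocytes and lymphocytes. A value measured in whole blood is therefore an average over a mixture, and fewer cells of a type cannot be told apart from less RNA per cell of that type.

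Each pig gave 1 array, on which Cy3-labelled RNA was hybridised to porcine probes of 60 bases. Values are log2 intensities after quantile normalization by the authors, for 39072 probes. A difference of 1 on this scale is a 2-fold difference, and a positive difference means higher in HS. Between 60% and 68% of all probes of an LW array were well above background, and no probe spot was saturated. The 6 array measures that were examined, among them the median raw intensity, the percentage of probes above background and the first 2 principal components, did not differ between HS and TN beyond the spread of the pigs (exact permutation test over 12 pigs, two-sided, lowest p = 0.199, lowest adjusted p = 0.584). The markers expected in blood were present. All 21 measured markers of immature red cells, all 15 of T cells, all 12 of B cells, 15 of 18 of neutrophils and 11 of 12 of platelets were well above background on all 12 LW arrays. The arrays came from 5 slides, each read in its own scan. Slides 1 to 4 held LW pigs of both groups, and slide 5 held TN pigs 5 and 6 only. Pen, day of slaughter, father and mother are not in the labels. By the description of the experiment, whole pens were slaughtered in 1 climate and littermates were spread over pens, so effects of pen, slaughter day and climate cannot be told apart, and the p-values treat pigs as independent.

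In LW pigs no gene passed the threshold for a difference between climates. With limma on all 35 arrays and Benjamini-Hochberg adjustment, 0 of 39072 probes (0%) passed an adjusted p of 0.05, and the smallest adjusted p was 0.563. Averaged over the probes of a gene, 0 of 9913 genes (0%) passed, with a smallest adjusted p of 0.529, and 899 genes (9.07%) had an unadjusted p under 0.05. At an unadjusted p of 0.05 there were 3404 probes (8.71%), of which 2693 were higher (6.89%) and 711 lower (1.82%) in HS. The probes that were higher were therefore more numerous among those with small p-values, although 52.7% of all probes were higher in HS. The count of 3404 went to 2038 without HS pig 2, to 2128 without HS pig 4 and to 5179 when the 12 LW arrays were fitted alone.

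The differences were small. The median of the absolute log2 difference over all probes was 0.14, its 90th percentile 0.36 and its 99th percentile 0.65. A difference of 2-fold or more was found for 30 probes, 6 higher and 24 lower in HS, and in only 1 of these 30 did the pigs of the 2 groups not overlap. The median standard error (SE) of a difference was 0.15. The 95% confidence interval lay inside a 2-fold difference in either direction for 93.8% of the probes, and inside a 1.5-fold difference for 70% of them. For most probes a 2-fold effect is thus outside the interval, and with 6 pigs per group the median half-width of the interval was 0.31 on the log2 scale.

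All 6 HS pigs were above all 6 TN pigs for 267 probes (0.683%), and all 6 were below for 38 probes (0.0973%). These counts describe the separation of the pigs and were not tested. Leaving out a pig can only keep or raise the count of 305 in both directions (0.781%), because fewer pigs are left that can overlap. It ran from 350 without HS pig 2 to 911 without HS pig 5. It was 892 without TN pig 1, 706 without HS pig 1 and 551 without TN pig 3. Without TN pig 6, TN pig 4 and HS pig 6 it was 520, 518 and 487. The direction of these changes was fixed in advance, so they do not show whether the count depended on single pigs. The count was 766 without TN pigs 5 and 6 of slide 5.

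**Figure D1:**
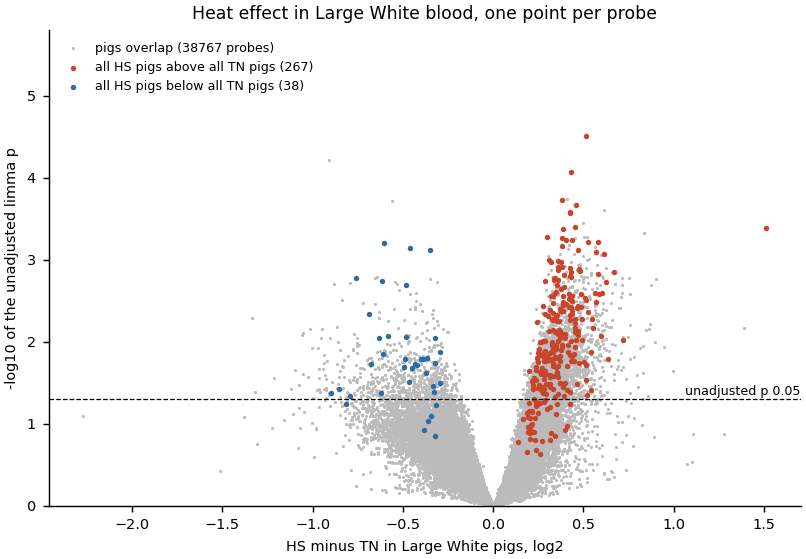
Each point is a probe, with the log2 difference of HS minus TN in LW pigs on the x axis and the −log10 of the unadjusted limma p on the y axis; red and blue points are the 267 and 38 probes in which the pigs of the groups did not overlap. The red points outnumber the blue ones, and most points lie within a 2-fold difference.

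A single choice of fit changed the call. When arrays were weighted by their fit to the group means (array weights of limma), 1111 probes (2.84%) passed the adjusted threshold, with 931 higher (2.38%) and 180 lower (0.461%) in HS and a smallest adjusted p of 0.024. Among LW pigs the weights ran from 0.640 for TN pig 3 to 2.31 for HS pig 3, and TN pig 2 (2.13), HS pig 6 (1.90), HS pig 4 (1.81) and HS pig 2 (1.78) were also counted above the mean. The weights were estimated from the same values that were tested. The probes that rose or fell in this fit had a median absolute log2 difference of 0.45. At the level of genes, 731 of 9913 (7.37%) passed, 603 higher (6.08%) and 128 lower (1.29%). No other fit called a probe, and at the level of genes the fit limited to probes above background on at least 0.5 of the arrays of an LW group called 1 gene. Below, "with array weights" refers to this fit, and all other values come from the fit without weights.

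Among the probes with a gene symbol and no overlap, PUSL1 had the largest difference. PUSL1 is related to the enzymes that make pseudouridine in RNA. In TN pigs the log2 value of its probe was between 7.82 and 9.58 with a median of 7.92, and in HS pigs it was between 9.61 and 10.33 with a median of 9.71. The TN pigs themselves fell apart, with 4 pigs between 7.82 and 7.94 and pigs 3 and 4 at 9.02 and 9.58, the latter just below the lowest HS pig. HS was higher by 1.51 ± 0.39 (SE, limma adjusted p = 0.563, n = 6 against 6), or 2.85-fold. In CR and F1 pigs the same probe differed by 0.19 ± 0.40 and 0.32 ± 0.39. The difference between LW and CR pigs in this effect (1.33 ± 0.56) and that between LW and F1 pigs (1.19 ± 0.55) did not pass (limma adjusted p = 1 and 0.192). No other probe of PUSL1 was in the table.

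NSDHL, a sterol dehydrogenase in the synthesis of cholesterol, had the smallest p-value of all probes. Its values were 5.43 to 5.89 in TN pigs (median 5.84) and 5.99 to 6.49 in HS pigs (median 6.24). HS was higher by 0.52 ± 0.11 (SE, limma adjusted p = 0.563). The other 4 probes of NSDHL were also higher in HS, by 0.05 to 0.48. The probe was dim, and its difference was 0.82 when background-subtracted intensities were scaled to the 75th percentile and 0.31 after a normexp correction. PHGDH, the first enzyme of serine synthesis, was between 9.22 and 9.61 in TN pigs (median 9.46) and between 9.80 and 10.46 in HS pigs (median 10.04), a difference of 0.64 ± 0.25 (SE), and its other probe was higher by 0.44. ACSL3, which activates long-chain fatty acids, was between 7.40 and 8.01 in TN pigs (median 7.79) and between 8.08 and 8.61 in HS pigs (median 8.28), but its other 2 probes differed by only -0.03 and 0.05.

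DNMT3A, which sets new DNA methylation, had values of 9.52 to 10.19 in TN pigs (median 9.99) and 10.24 to 10.80 in HS pigs (median 10.54), and its other 3 probes were higher by 0.44 to 0.51. The zinc finger repressor ZBTB20 was higher by 0.57 ± 0.17 (SE), and all HS pigs lay within 9.63 to 9.88. DMTF1, a Myb-like transcription factor, was higher by 0.61 ± 0.17, but its other probe differed by -0.13. KIAA1310, a subunit of a histone acetyltransferase complex, was higher by 0.49 ± 0.15. The other higher genes were MOBKL1B (0.59 ± 0.18), an adaptor of the Hippo kinases, DYNLT1 (0.57 ± 0.18), a light chain of dynein, and TPM4 (0.51 ± 0.20), a tropomyosin of the actin skeleton. The 3 other probes of DYNLT1 were all higher in HS by 0.20 to 0.54, whereas the other probes of TPM4 differed by -0.02 to 0.15. With array weights 9 of these 11 probes rose (limma adjusted p = 0.0281 to 0.0432), and ACSL3 (0.0628) and TPM4 (0.0588) did not pass. The probes were chosen on these same values, so passing was favoured in advance and adds no evidence. Of all probes, 2.38% passed as higher in that fit.

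Among the probes with a symbol and no overlap that were lower in HS, FAM213A and STRADB had the largest differences. FAM213A encodes a peroxiredoxin-like protein. Its values were 11.63 to 12.34 in TN pigs (median 11.98) and 10.39 to 11.50 in HS pigs (median 11.16), so HS was lower by 0.90 ± 0.42 (SE, limma adjusted p = 0.57), with HS pig 4 the lowest. All 9 other probes of FAM213A were lower too, by -0.83 to -0.58. STRADB, a pseudokinase related to the partner of the kinase LKB1, was 9.52 to 10.36 in TN pigs (median 9.73) and 8.41 to 9.39 in HS pigs (median 9.05). In CR pigs FAM213A and STRADB differed by -1.21 and -1.09. In F1 pigs they differed by -1.63 and -1.62 (limma adjusted p = 0.00398 and 0.0024). The difference between LW and F1 pigs did not pass for either (limma adjusted p = 0.47 and 0.408). OAZ1, the antizyme that limits polyamine synthesis, was 12.18 to 12.89 in TN pigs (median 12.52) and 11.38 to 12.15 in HS pigs (median 11.88), and its 5 other probes were lower by -0.45 to -0.05. The mean of the markers of immature red cells was also lower in HS pigs. With that mean as a covariate in the 12 LW arrays the differences were -0.63 for FAM213A, -0.68 for STRADB and -0.44 for OAZ1. Other named probes moved too, in both directions, such as MOBKL1B (0.45, beside 0.59) and KIAA1310 (0.58, beside 0.49). The part of immature red cells in these differences was not tested.

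SMAD7 and EBAG9 were lower in HS in LW pigs. In the other breeds their differences were positive, but only that of EBAG9 in F1 pigs passed the adjusted threshold. SMAD7, the inhibitory SMAD of TGF-beta signalling, was 7.36 to 8.56 in TN pigs (median 7.58) and 6.89 to 7.27 in HS pigs (median 7.15), a difference of -0.63 ± 0.23 (SE), against 0.31 ± 0.24 in CR and 0.34 ± 0.23 in F1 pigs, but its other probe differed by only -0.02 in LW pigs. EBAG9, a protein of vesicle secretion, was 7.69 to 8.32 in TN pigs (median 7.94) and 7.04 to 7.65 in HS pigs (median 7.28). Its difference was -0.62 ± 0.18 in LW pigs, 0.08 ± 0.19 in CR pigs and 0.55 ± 0.18 in F1 pigs, where it passed the threshold (limma adjusted p = 0.0185). The 3 other EBAG9 probes were also lower in LW pigs, by -0.65 to -0.43. The test of the difference between LW and F1 pigs missed the threshold for both genes (limma adjusted p = 0.122 each, with unadjusted p = 0.00491 for SMAD7 and 7.29e-05 for EBAG9), so these effects were not shown to differ between breeds.

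MLKL, which punctures the cell membrane in necroptosis, was well above background on all 6 TN arrays and on 0 of the 6 HS arrays. Its values were 5.51 to 5.96 in TN pigs (mean 5.69) and 4.85 to 5.39 in HS pigs (mean 5.09). Since the HS value is only a bound, MLKL was at least 1.43-fold higher in TN pigs in the authors' values (limma adjusted p = 0.563). CXCR4, the receptor that keeps white cells in the bone marrow, was 8.18 to 8.49 in TN pigs (median 8.34) and 7.37 to 8.16 in HS pigs (median 7.93), and all 3 of its other probes were lower by -0.79 to -0.46. FOS, an immediate early transcription factor, was lower by 0.46 ± 0.21 (SE), with its 4 other probes lower by -0.37 to -0.14, and was well above background in only 4 of the 6 HS pigs. The remaining probes of the 12 were those of DOLK (-0.68 ± 0.27), a kinase of the lipid carrier dolichol, VAMP7 (-0.59 ± 0.21), a protein of vesicle fusion, SLC30A3 (-0.62 ± 0.30), a zinc transporter, and LGI3 (-0.39 ± 0.15), a secreted leucine-rich protein. The other probe of DOLK was higher in HS by 0.19 and that of SLC30A3 by 0.14. When background-subtracted intensities were scaled to the 75th percentile, the differences of the dim probes were larger (-1.06 for FOS and -0.81 for LGI3), and after a normexp correction the difference was -0.28 for FOS. The bound for MLKL holds for the authors' values only, and it was not computed under these corrections. The MLKL probe itself differed by -2.47 with the 75th percentile scaling and by -0.31 after normexp, beside -0.60 in the authors' values. With array weights OAZ1, SMAD7, EBAG9, MLKL, VAMP7 and LGI3 fell (limma adjusted p = 0.03 to 0.0469), and the other 6 did not pass, although CXCR4 averaged over its 4 probes did. These probes too were chosen on the values tested, and 0.461% of all probes passed as lower.

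**Figure D2:**
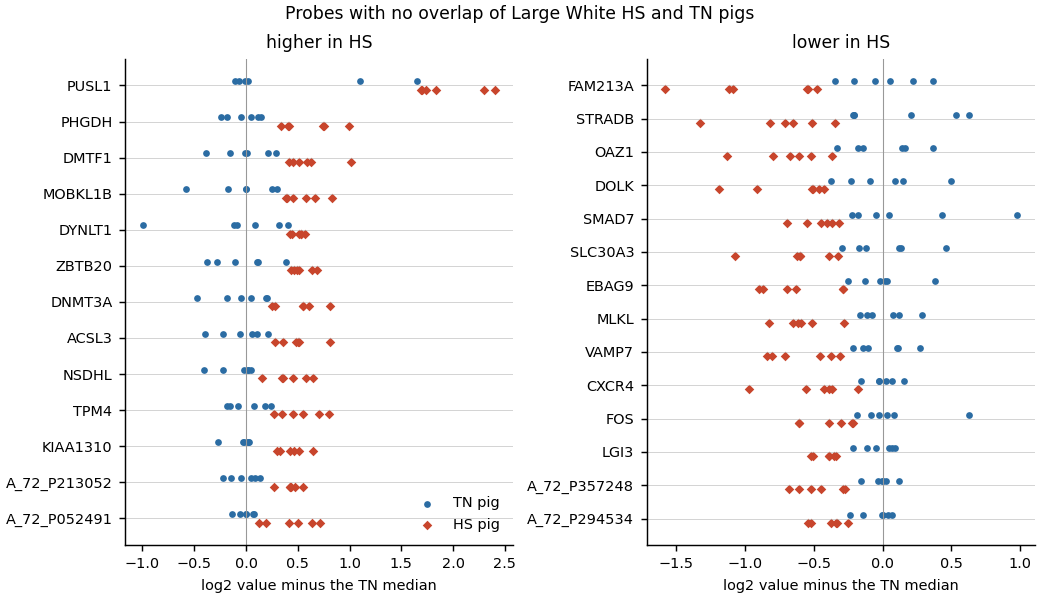
Each row is a probe and each symbol an LW pig, with its log2 value minus the median of the 6 TN pigs on the x axis (circles TN, diamonds HS); probes higher in HS are on the left and lower ones on the right. The groups do not overlap in any row because this chose the probes, and PUSL1 shows 2 TN pigs far above the other 4.

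Probes without a gene symbol made up 145 of the 303 probes with no overlap that were above background on at least 6 LW arrays. For the 2 with the smallest p-value in each direction, bases 16 to 45 of the 60-base probe are given 5′ to 3′ because the sequence is their identity; no motif was searched and nothing is in capitals.
A_72_P213052 (higher in HS): tttcccaataaaagaagggctcccagaggc
A_72_P052491 (higher in HS): actgtgactttcaaaacacaaaactggccg
A_72_P357248 (lower in HS): ttcagctcttttgacattgcctcagttctc
A_72_P294534 (lower in HS): ttctaccatatgcttttcaaagatggactg
A_72_P213052, described in the array files as a transcript cloned from adrenal gland, was 7.77 to 8.13 in TN pigs (median 7.99) and 8.26 to 8.54 in HS pigs (median 8.42). A_72_P052491 was 5.33 to 5.55 in TN pigs (median 5.47) and 5.59 to 6.18 in HS pigs (median 5.93). A_72_P357248, which the files describe as similar to part of a bovine aspartyl-tRNA synthetase, was 7.36 to 7.63 in TN pigs (median 7.52) and 6.84 to 7.24 in HS pigs (median 7.04). A_72_P294534, described as similar to ANKRD29, was 6.41 to 6.71 in TN pigs (median 6.64) and 6.10 to 6.39 in HS pigs (median 6.29), with TN pig 1 just above HS pig 1. With the 75th percentile scaling A_72_P052491 differed by 0.995 and A_72_P294534 by -0.60. All 4 passed with array weights (limma adjusted p = 0.0281 to 0.0333), which was favoured in advance because small p-values in the same pigs chose them.

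CR and F1 pigs, which share no animal with the LW groups, were used to see how the selected probes behaved elsewhere. Of the 267 probes that were higher in all LW HS pigs, 235 (88%) were higher in HS in CR pigs as well and 261 (97.8%) in F1 pigs, beside 72.7% and 79.5% of all 20605 probes that were higher in LW HS pigs. Of the 38 probes that were lower, 30 (78.9%) were lower in CR and 31 (81.6%) in F1 pigs, beside 62.5% and 55.7% of the 18467 probes of that sign. The median difference of the 267 probes was 0.35 in LW pigs, 0.13 in CR pigs and 0.36 in F1 pigs, and that of the 38 probes -0.46, -0.23 and -0.58. The LW values chose the probes, which enlarges them beside the others. These shares are a description, since probes of 1 array are not independent.

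Over all probes the median absolute log2 difference was 0.14 in LW pigs, 0.14 in CR pigs and 0.305 in F1 pigs. This measure holds the spread of the pigs as well as any heat effect. The median SE of a difference in LW pigs was 0.15, and the measure was not tested between breeds. In F1 pigs 15108 probes (38.7%) passed the adjusted threshold and in CR pigs 0 (0%), where 3466 probes (8.87%) had an unadjusted limma p under 0.05. The effect of LW pigs differed from that of CR pigs in 0 probes (0%) after adjustment and in 700 probes (1.79%) before it. Against F1 pigs it differed in 0 probes (0%) after adjustment, with a smallest limma adjusted p of 0.122, and in 8874 probes (22.7%) before it. With array weights 3902 probes (9.99%) passed for LW against F1 pigs and 0 for LW against CR pigs.

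**Figure D3:**
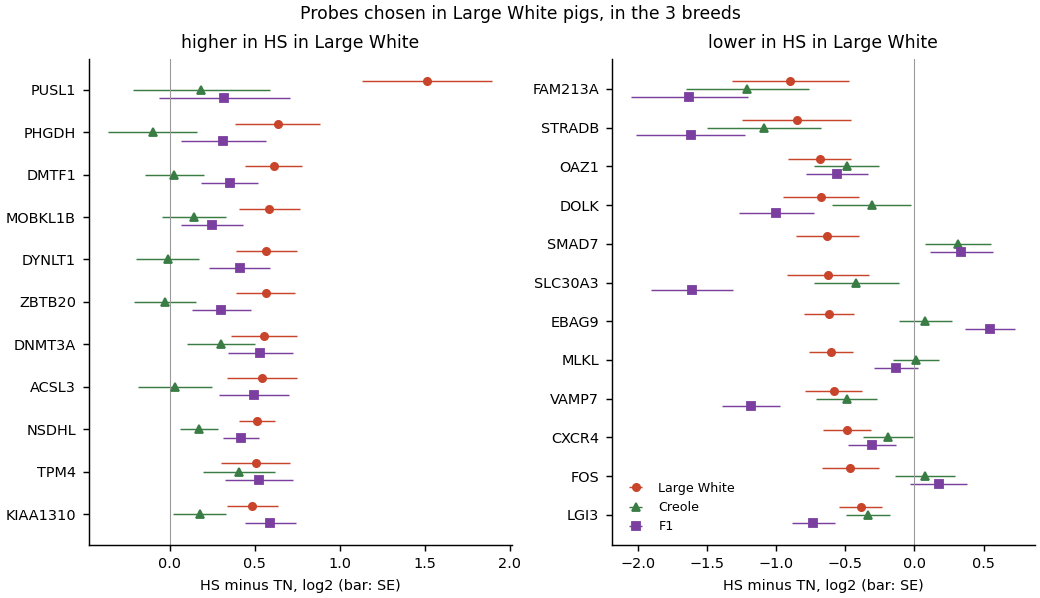
Points are the log2 difference of HS minus TN (x axis) of the 23 named probes in LW, CR and F1 pigs, and bars are the SE. The LW points were chosen to be far from 0, and the CR points lie on the same side of 0 for 8 of 11 higher and 8 of 12 lower probes, the F1 points for 11 of 11 and 9 of 12.

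Gene lists were described by the number of measured members in each direction and by their median, beside all 9913 genes, of which 53.1% were higher in HS (median difference 0.02), 7.35% were higher with an unadjusted limma p under 0.05 and 1.71% lower. No member of any list passed the adjusted threshold. Heat shock proteins are described in 4 lists. Of the 10 members of HSP70 and HSP110, 3 were higher and 7 lower in HS (median -0.02, range -0.26 to 0.07) and none had an unadjusted p under 0.05. HSPA8, the constitutive HSP70 of the cytosol, was 10.88 to 11.70 in TN pigs (median 11.12) and 10.22 to 11.58 in HS pigs (median 11.06), a difference of -0.20 ± 0.21 (SE). HSPA5, the HSP70 of the endoplasmic reticulum, differed by -0.01 ± 0.08 in LW pigs, beside 0.12 in CR and 0.45 in F1 pigs (limma adjusted p of LW against F1 pigs = 0.115, unadjusted p = 0.000413).

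HSP90 and its co-chaperones were higher in 10 of 12 members (median 0.15), but only CDC37, which hands kinases to HSP90, had an unadjusted p under 0.05 (0.21 ± 0.10 SE). HSP90AA1 and HSP90AB1 differed by 0.18 ± 0.12 and 0.17 ± 0.11, and DNAJB1, an HSP40 that works with HSP70, by 0.22 ± 0.12. Of 25 HSP40 members, 2 (8%) were higher at an unadjusted p under 0.05, DNAJC13 (0.33 ± 0.11) and DNAJC17 (0.34 ± 0.13). These counts rested on single pigs. Without HS pig 1, which had the lowest mean of the HSP90 list, HSP40 had 6 such members and HSP90 and its co-chaperones 3, beside 8.48% of all genes, whereas HSP40 had 1 without HS pig 4 and HSP90 had 0 without HS pig 2. In the fits without HS pig 4 and without HS pig 2, 4.38% and 4.2% of all genes were higher. With the 12 LW arrays alone HSP40 had 4 higher and 1 lower, beside 9.67% of all genes higher and 384 of 9913 lower. With array weights CDC37, UNC45A, DNAJC11, DNAJC13 and DNAJC17 rose. Among heat shock factors, small HSPs and BAG proteins, BAG3, a co-chaperone of HSP70 in the disposal of damaged proteins, was lower by 0.26 ± 0.10 (limma adjusted p = 0.529), with 6.45 to 7.13 in TN pigs (median 6.63), 6.26 to 6.55 in HS pigs (median 6.46) and all 6 of its probes lower. In CR and F1 pigs BAG3 differed by 0.19 and 0.002. Without TN pig 3 this list had 0 members lower at an unadjusted p under 0.05, beside 158 of all 9913 genes. The mitochondrial chaperones HSPD1 and HSPE1 differed by -0.18 ± 0.18 and -0.01 ± 0.14, and HSPH1, an HSP110, by -0.01 ± 0.15.

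A panel of 24 genes, 21 of them measured, held genes of heat, oxidative stress, hormone response and red cells. It also held NOP14 and NAV1, which are in none of these classes. Like the gene lists, the panel was chosen with earlier results of these data known. Its differences ran from -0.28 to 0.51, and apart from NOP14 and NAV1 the highest was 0.22 (DNAJB1). BAG3 was its only member with an unadjusted limma p under 0.05, and without TN pig 3 the panel had 0 members lower at that threshold. RBM3, HSPA1A and TSC22D3 were not measured. The antioxidant genes PRDX1, PRDX2, SOD1 and HMOX1 differed by 0.11 ± 0.13, -0.15 ± 0.27, -0.02 ± 0.14 and 0.15 ± 0.21. The cold-inducible gene CIRBP differed by 0.09 ± 0.09. FKBP5, PER1 and CD163, which respond to glucocorticoids, differed by 0.18 ± 0.15, 0.15 ± 0.15 and 0.18 ± 0.27. The red cell genes ALAS2 and HBB differed by -0.28 ± 0.29 and -0.13 ± 0.15. The largest differences in the panel were those of NOP14 (0.51 ± 0.29), a factor of ribosome assembly, and NAV1 (0.51 ± 0.28), a neuron navigator, which were 1.02 and 1.18 in CR pigs and 1.01 and 0.88 in F1 pigs. NOP14 was 9.05 to 11.34 in TN pigs (median 10.41) and 10.53 to 11.40 in HS pigs (median 10.86), so the TN pigs spread over nearly all values of the HS pigs. NAV1 rose with array weights, the only gene of the 21 measured that did.

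Genes of protein synthesis are described in 4 lists. Ribosome biogenesis had 8 of 32 members (25%) higher and 1 lower at an unadjusted limma p under 0.05 (median 0.14), translation factors 9 of 41 (22%) higher and 0 lower (median 0.08), and mitochondrial ribosomal proteins 11 of 56 (19.6%) higher and 0 lower (median 0.09), beside 7.35% and 1.71% of all genes. The cytosolic ribosomal proteins were close to all genes, with 5 of 67 (7.46%). NOP16, a nucleolar protein of the large subunit, was higher by 0.38 ± 0.15 (SE) and UTP6 by 0.21 ± 0.08, whereas UTP18, of the same processome as UTP6, was lower by 0.44 ± 0.21. EIF5B, which joins the ribosomal subunits at initiation, was 8.20 to 8.49 in TN pigs (median 8.34) and 8.26 to 8.81 in HS pigs (median 8.68), and EIF4G2 was higher by 0.42 ± 0.16.

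The 2 mitochondrial ribosomal proteins with the smallest p-values for a rise had no overlap of the groups, for MRPS9 only barely (highest TN pig 7.864, lowest HS pig 7.865). Both were picked by p-value in the same pigs, so their separation adds no evidence. MRPS9 was 7.41 to 7.86 in TN pigs (median 7.53) and 7.87 to 8.28 in HS pigs (median 8.01), and MRPL28 was 8.43 to 8.80 in TN pigs (median 8.67) and 8.85 to 9.25 in HS pigs (median 8.97). With array weights 9 of 32 genes of ribosome biogenesis, 9 of 41 translation factors and 7 of 56 mitochondrial ribosomal proteins rose and 0 fell, beside 6.08% of all genes. These counts rested on single pigs. Without HS pig 2, translation factors had 4 and mitochondrial ribosomal proteins 3 members higher at an unadjusted p under 0.05, and without HS pig 4 ribosome biogenesis had 2. In the same fits 4.20% and 4.38% of all genes were higher at that threshold. Without TN pigs 5 and 6 of slide 5 the counts were 5 for ribosome biogenesis, 2 for translation factors and 6 for mitochondrial ribosomal proteins, beside 5.19% of all genes. With the mean of the red cell markers as a covariate in the 12 LW arrays they were 4, 4 and 5, beside 5.61%. The median of the mitochondrial ribosomal proteins within slides 1 to 4 was -0.04, 0.11, 0.15 and 0.02. That of ribosome biogenesis was -0.03, 0.19, 0.13 and 0.13, and that of translation factors -0.04, 0.18, 0.004 and 0.02. For the cytosolic ribosomal proteins it was -0.10, 0.125, -0.002 and -0.09.

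Among genes of energy metabolism and organelles, respiratory complex I had 28 of 33 members higher in HS (median 0.10), with 5 (15.2%) at an unadjusted limma p under 0.05. NDUFS8 was 10.79 to 11.21 in TN pigs (median 10.88) and 11.05 to 11.50 in HS pigs (median 11.32). Complexes II to V were higher in 20 of 36 members, and UQCR11 of complex III was higher by 0.31 ± 0.11 (SE). Of 33 lysosomal genes, 25 were higher (median 0.10) and 6 (18.2%) at an unadjusted p under 0.05, among them LIPA (0.30 ± 0.11), the acid lipase, and CD63 (0.29 ± 0.11), a membrane protein. With slide in the model complex I had 2 such members. Without HS pig 2 complex I had 2 and lysosomal genes 3, and with the red cell covariate each had 2. In these 3 fits 5.81%, 4.2% and 5.61% of all genes were higher at that threshold. Within slides 1 to 4 the median of complex I was 0.05, 0.04, 0.22 and 0.01. That of complexes II to V was -0.09, -0.01, -0.01 and -0.09, and that of lysosomal genes 0.15, 0.25, -0.03 and 0.185. Cholesterol synthesis and uptake had 15 of 18 members higher (median 0.14, positive within each of slides 1 to 4). At an unadjusted p under 0.05, 3 members (16.7%) were higher, among them MVK (0.35 ± 0.15), the mevalonate kinase. NSDHL, also picked by its p-value in the same pigs, had no overlap when averaged over its 5 probes. It was 6.50 to 6.63 in TN pigs (median 6.53) and 6.65 to 7.12 in HS pigs (median 6.90). Glycolysis had 12 of 19 members higher and 1 at an unadjusted p under 0.05, ENO1 (0.31 ± 0.13), and 4 of 19 rose with array weights (ENO1, GPI, PFKFB4 and TPI1). Of 20 autophagy genes 13 were lower in HS (median -0.09), and at an unadjusted p under 0.05 ATG7, an enzyme of autophagy, was higher by 0.31 ± 0.11 and GABARAPL2, a protein of the autophagosome membrane, lower by 0.56 ± 0.26. Of 22 genes of apoptosis 13 were higher (median 0.03), and 1 had an unadjusted p under 0.05, BAX (0.39 ± 0.14), which opens the mitochondrial membrane.

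Among receptors of chemokines and cytokines, members were found in both directions. At an unadjusted limma p under 0.05, 3 of 25 (12%) were higher and 4 (16%) lower in HS, with a median of 0.01. The latter count was 2 without TN pig 3, where 158 of all 9913 genes were lower at that threshold. CXCR4, averaged over its 4 probes, was lower by 0.61 ± 0.21 (SE). CCR9, which guides lymphocytes to the gut, was 8.64 to 9.16 in TN pigs (median 8.80) and 8.87 to 9.59 in HS pigs (median 9.42), and IL6R was higher by 0.31 ± 0.13. With array weights CXCR4 fell and CCR9 rose. Of the Toll-like receptors and the inflammasome, TRAF6, the ubiquitin ligase below these receptors, was 7.76 to 8.11 in TN pigs (median 7.82) and 8.09 to 8.71 in HS pigs (median 8.42), a difference of 0.50 ± 0.15 (unadjusted p = 0.00166), and NLRP3, the sensor of the inflammasome, was higher by 0.355 ± 0.16. Both rose with array weights. The list as a whole had members in both directions, with 12 of 22 higher and 10 lower in HS (median 0.03). At the unadjusted threshold 3 were higher and 0 lower, and the former count was 1 without HS pig 4. LY96 and TLR4 of the same list differed by -0.39 ± 0.27 and -0.31 ± 0.19. The 28 interferon-stimulated genes had 20 members lower in HS (median -0.06), none with an unadjusted p under 0.05. MHC class II genes were higher in 9 of 10 members (median 0.22), none with an unadjusted p under 0.05.

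Targets of the glucocorticoid receptor and clock genes were mostly lower. Of 14 genes of the glucocorticoid receptor and its targets, 10 were lower in HS (median -0.06). SGK1, a kinase that regulates sodium transport, was 8.04 to 9.46 in TN pigs (median 8.74) and 7.76 to 8.26 in HS pigs (median 7.83), a difference of -0.89 ± 0.34 (SE, limma adjusted p = 0.529). The HS values lay at the low end but overlapped those of the TN pigs, and SGK1 fell with array weights. DUSP1, the phosphatase of MAP kinases, was lower by 0.44 ± 0.19. These were the 2 genes of the list with an unadjusted p under 0.05. Without TN pig 6 there were 4, all lower, beside 341 of all 9913 genes lower. Within slides 1 to 4 the median of the list was -0.03, -0.16, -0.27 and 0.005. Of 12 clock genes 9 were lower (median -0.16, negative within each of slides 1 to 4), with CRY1 lower by 0.37 ± 0.17 and BMAL1 by 0.29 ± 0.13, both with an unadjusted p under 0.05. That count was 0 without HS pig 4 and 4 without HS pig 5, where 91 and 339 of all 9913 genes were lower. The time of day of blood collection is not in the labels. Of 21 genes of the cell cycle and DNA replication, 19 were lower (median -0.16) and none had an unadjusted p under 0.05. Within slides 1 to 4 the median of that list was -0.64, -0.13, -0.02 and 0.13.

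**Figure D4:**
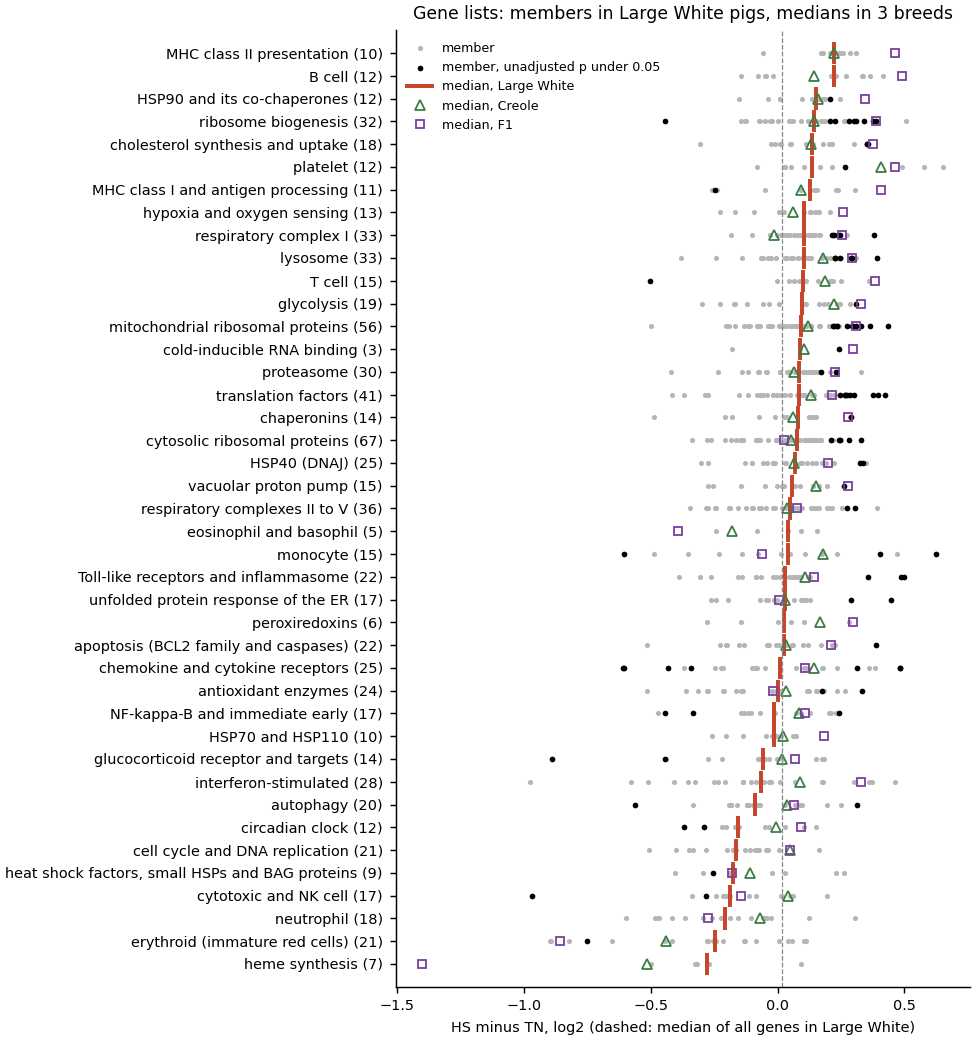
Rows are 41 gene lists with the number of measured genes, and grey and black points are the log2 differences of HS minus TN of the members in LW pigs (x axis; black, unadjusted p under 0.05); the red bar is the LW median, the triangle the CR median and the square the F1 median. LW medians lie between -0.28 and 0.22, and for heme synthesis the F1 median is -1.40.

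The markers of cell types were compared because whole blood is a mixture. Markers of immature red cells were lower in HS in 16 of 21 genes (median -0.25, range -0.90 to 0.11), and 1, the membrane skeleton gene EPB41, had an unadjusted limma p under 0.05 (-0.75 ± 0.34 SE). With the 12 LW arrays alone 6 of the 21 were lower at that threshold, beside 384 of all 9913 genes. The mean log2 value of the list was 10.35 to 11.10 in TN pigs (median 10.71) and 9.86 to 10.72 in HS pigs (median 10.51), so the groups overlapped, and HS pig 4 was the lowest. Within slides 1 to 4 the list had a median difference of -0.49, -0.15, -0.60 and -0.24. Heme synthesis was lower in 6 of 7 genes (median -0.28). In CR pigs the medians of these 2 lists were -0.44 and -0.52, and in F1 pigs -0.86 and -1.40. The difference between breeds was not tested for the lists, and for ALAS2, the enzyme that starts heme synthesis in red cells, that between LW and F1 pigs gave an adjusted limma p of 0.128.

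Platelet and neutrophil markers varied more between pigs than between groups. The mean of 12 platelet markers ran from 7.05 to 8.61 in TN pigs (median 7.92) and from 6.83 to 8.95 in HS pigs (median 8.16), with 11 of 12 genes higher in HS (median 0.14) and an SD of 0.76 between pigs of a group. The mean of 18 neutrophil markers ran from 9.51 to 10.39 in TN pigs (median 9.93) and from 9.11 to 10.48 in HS pigs (median 9.75), and 16 of 18 genes were lower (median -0.21). Within slides 1, 2 and 3 the neutrophil median was -0.61, -0.43 and -0.52, and within slide 4 it was 0.65. TN pigs 1 to 3, on slides 1 to 3, had the highest neutrophil and lowest platelet means of the TN group, and TN pigs 4 to 6, on slides 4 and 5, the reverse. Among HS pigs, the 2 pigs of slide 3 lay far apart, with platelet means of 8.92 (pig 4) and 6.83 (pig 5), and pig 6 of slide 4 was highest (8.95). The part of platelets and neutrophils in the differences between HS and TN was not tested.

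At an unadjusted limma p under 0.05, monocyte markers had 2 of 15 members higher (13.3%) and 1 lower (6.67%), cytotoxic and NK cell markers 2 of 17 lower (11.8%), T cell markers 1 of 15 lower (6.67%) and B cell markers 0 of 12, beside 7.35% higher and 1.71% lower of all genes. Without TN pig 2 the T cell markers and the cytotoxic and NK cell markers each had 0 lower, beside 110 of all 9913 genes. With the red cell covariate in the 12 LW arrays each had 0 lower as well, beside 295. With slide as a fixed block the T cell markers had 0 lower and the cytotoxic and NK cell markers 2, beside 155. Without HS pig 1 the B cell markers had 4 higher, beside 8.48% of all genes. T cell markers were higher in 13 of 15 genes (median 0.10), but CD8A, the coreceptor of cytotoxic T cells, was lower by 0.50 ± 0.22 (SE), with 7.71 to 9.17 in TN pigs (median 8.29) and 7.73 to 8.04 in HS pigs (median 7.80). Cytotoxic and NK cell markers were lower in 11 of 17 genes (median -0.19), among them KLRK1 (-0.97 ± 0.47), an activating receptor. GZMA, a granzyme, was well above background on 4 TN arrays and on 0 HS arrays. CX3CR1, found on patrolling monocytes and cytotoxic lymphocytes, was lower by 0.60 ± 0.27. Of the other monocyte markers, VCAN and CSF1R were higher by 0.62 ± 0.23 and 0.40 ± 0.18. B cell markers were higher in 7 of 12 genes (median 0.22), and HS pig 1 stood below the other 5 HS pigs.

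**Figure D5:**
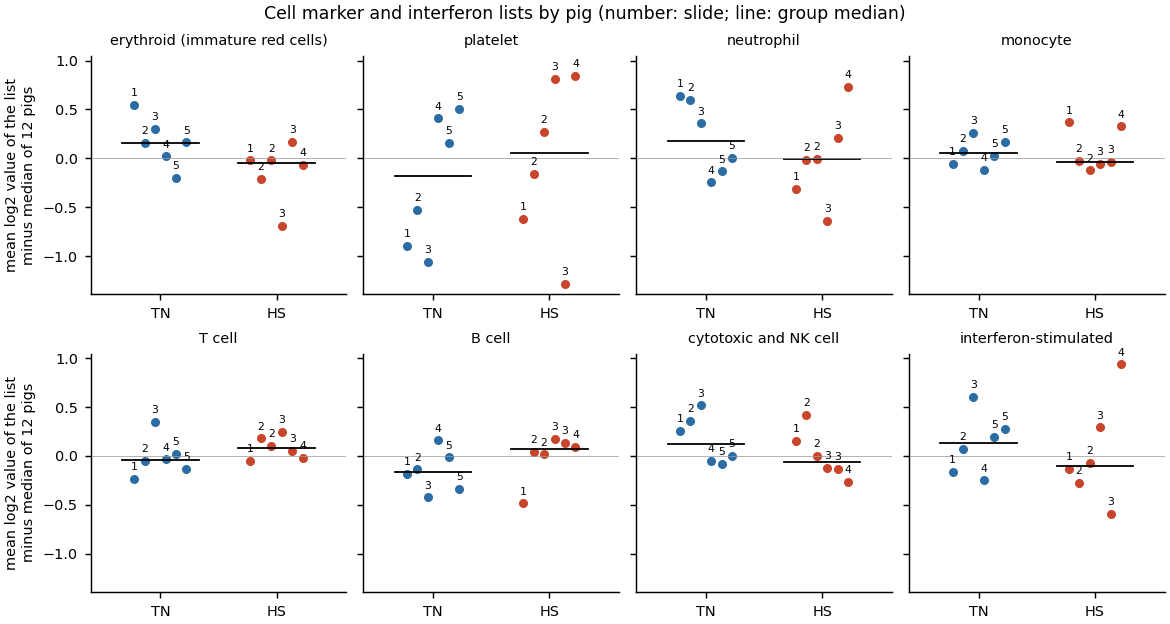
Each point is an LW pig, the y axis is the mean log2 value of the list minus the median of the 12 pigs, the number is the slide and the line the group median; the 8 panels are 7 lists of cell type markers and the interferon-stimulated genes, with TN in blue and HS in red. Platelet means spread over more than 1.5 in both groups, and no list separates TN from HS.

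The spread between pigs was larger than most heat effects. The median within-group SD over probes was 0.24 in TN and 0.21 in HS pigs, and it was larger in TN pigs for 61.4% of probes, without a test. The Pearson correlation between arrays across probes had a median of 0.978 between TN pigs, 0.982 between HS pigs and 0.981 between a TN and an HS pig. The genes that varied most within a group, among 7828 genes above background with every probe on all 12 arrays, were taken as the 20 with the largest SD. Of these, 2 were in the list of neutrophil markers (S100A8 and LTF), 2 in that of platelets (GP1BB and PPBP) and 2 among the interferon-stimulated genes (OAS1 and MX1), and 14 in none of these. PR39, an antimicrobial peptide of pig neutrophils, ran from 10.23 to 13.63 in TN pigs and from 7.99 to 14.78 in HS pigs, a 110.6-fold range, with equal medians (11.56). S100A8, a calcium-binding protein of neutrophils, ran from 10.44 to 13.85 in TN pigs (median 11.84) and from 9.56 to 13.43 in HS pigs (median 11.42).

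The interferon-induced OAS1 ran from 8.14 to 11.69 in TN pigs (median 11.10) and from 5.63 to 11.74 in HS pigs (median 9.92), with HS pig 5 the lowest. MX1, an antiviral GTPase of the same response, ran from 9.22 to 12.21 and from 8.56 to 13.33, with HS pig 6 the highest. GP1BB, part of the platelet receptor for von Willebrand factor, ran from 8.02 to 11.37 in TN pigs and from 7.13 to 12.28 in HS pigs. CKB, a creatine kinase, ran from 10.48 to 14.28 in TN and from 9.73 to 15.14 in HS pigs. The differences between HS and TN of these genes were between -0.975 (OAS1) and 0.58 (GP1BB), within the spread of the pigs.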

How the data were processed

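Whole blood RNA of 35 pigs was hybridised to 1-colour Agilent arrays (1 array per pig). Per the file headers, spots were read with Feature Extraction 10.10.1.1 and the deposited scanner files hold intensities that were not normalized between arrays. The authors also deposited log2 values of the median intensity after quantile normalization, filtered to 39072 of 60305 probes by a rule that is not given in the sources used here. These log2 values were analysed, and all columns were mapped to a sample. Arrays have no counting depth, and their number limits the precision.

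Probes were named by a current gene symbol (16473), an older symbol (567), an accession (1725) or the name in the file (937), and 19370 had no gene name. Group means of 6 groups were fitted with limma 3.58.1 in R 4.3.3 (lmFit and eBayes, two-sided, Benjamini-Hochberg adjustment over all probes, threshold 0.05), and again on the mean of the probes of each of 9913 genes. The script was tested on simulated data. Pen, slaughter day, father and mother, which the study modelled, could not be fitted.

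Named probes had a symbol, were well above background on at least 6 LW arrays and had no overlap of the groups, and the 12 genes with the largest difference in each direction were taken, with the 2 unnamed probes of smallest p. In each gene list up to 2 members per direction with the smallest p could be named, and the panel was given whatever its values. MVK, GPI, PFKFB4, TPI1, UNC45A and DNAJC11 were named outside this rule after their values were seen, and some genes that the rule would name are not reported here. The groups, gene lists and tests were chosen with earlier results of these data known. Where a probe was not above background on any array of 1 group, its level there was bounded by the lowest signal among probes above background. Alternatives covered normalization, background, filters, arrays in the fit, array weights, slide, a red cell covariate and leaving out pigs.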

Additional observations from a re-analysis of the deposited data

Results flagged for a closer look

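In 12 of 222 groups of 6 pigs that were examined (values of named probes, panel genes, variable genes and gene lists), the highest or lowest pig stood apart from the others, and chance alone gives about 1 in 20. The number given is the gap to the nearest pig as a fraction of the range of the group, followed by the log2 values. TGFBRAP1 in TN pig 4 had 0.866, at 10.24 beside 5.51 to 6.14 in the other TN pigs. KIAA1310 in TN pig 5 had 0.817 (9.78 beside 10.03 to 10.08), FOS in TN pig 3 had 0.668 (6.51 beside 5.69 to 5.97), DYNLT1 in TN pig 2 had 0.628 (8.66 beside 9.55 to 10.07) and NAV1 in TN pig 6 had 0.780 (8.61 beside 7.66 to 7.87). DMTF1 in HS pig 2 had 0.632 (7.52 beside 6.93 to 7.14) and ALAS2 in HS pig 1 had 0.662 (10.21 beside 9.25 to 9.57).

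Of the gene lists, HS pig 1 was lowest for B cells (0.761, mean 9.03 beside 9.53 to 9.69) and for HSP90 and its co-chaperones (0.635, 8.72 beside 9.002 to 9.16). HS pig 4 was lowest for autophagy (0.679, 8.84 beside 8.92 to 8.96), TN pig 4 was lowest for hypoxia and oxygen sensing (0.793, 7.11 beside 7.17 to 7.18) and TN pig 3 was highest for ribosome biogenesis (0.733, 8.38 beside 8.21 to 8.25). Among 21233 probes outside the authors' table, 0 were above background on all HS arrays and no TN array of LW pigs, and 0 the reverse.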

How the results depend on the processing

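No paired analysis was possible because the replicate numbers were given in record order and pair no animals. The count of probes past the adjusted threshold was 0 under each alternative except array weights (1111). The count at an unadjusted p under 0.05 was 5179 with the 12 LW arrays alone, 9880 with array weights and 2038 to 4862 when a pig was left out. The count with no overlap was 350 to 911 when a pig was left out, and 766 without the LW pigs of slide 5, an alternative chosen after seeing the data. The share of probes higher in HS was 51.8% to 53.7% when a pig was left out. For LW against F1 pigs, array weights gave 3902 probes. Of 2466 values of 103 named probes and genes under alternatives, 2381 kept direction and side of the threshold, 52 passed with array weights and 33 changed sign, none of them among the 669 values of the named probes. The sign changes were in 7 panel genes with differences near 0. With the erythroid covariate HBB was 0.070, HMOX1 -0.019, PRDX1 -0.011, HSPH1 0.029 and SOD1 0.012. With the 75th percentile scaling HSPA5 was 0.070, HSPE1 0.058, HSPH1 0.011 and SOD1 0.036, and with normexp HSPE1 was 0.002 and HSPH1 0.003. With slide as a fixed block HSPA5 was 0.001 and HSPE1 0.062, with slide as a random block HSPE1 was 0.004, and without slide 5 HSPA5 was 0.031 and HSPE1 0.023. Leaving out a pig, HSPA5 was -0.029 to 0.024, HSPE1 -0.041 to 0.048, HSPH1 -0.071 to 0.090 and SOD1 -0.089 to 0.025. The causes were not tested. Of 1008 list medians under alternatives, 991 moved by less than the spread between pigs and 17, in 10 lists, by more. With the 75th percentile scaling these were cold-inducible RNA binding (0.25, beside 0.09), antioxidant enzymes (0.11, beside 0.00), clock genes (-0.24, beside -0.16), cholesterol synthesis (0.22, beside 0.14), autophagy (-0.03, beside -0.09) and the panel (0.18, beside 0.09). With the erythroid covariate they were the vacuolar proton pump (-0.01, beside 0.06), MHC class I and antigen processing (-0.09, beside 0.13), chemokine and cytokine receptors (-0.12, beside 0.01) and autophagy (-0.03). With array weights they were antioxidant enzymes (0.09), the vacuolar proton pump (0.12) and apoptosis (-0.02, beside 0.03). Without the LW pigs of slide 5 they were antioxidant enzymes (0.12) and apoptosis (-0.02), and without 1 pig antioxidant enzymes (0.10, TN pig 4) and apoptosis (-0.02, TN pig 6).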
